A study of Mus musculus with 11 samples.

Results

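The carboxylesterases described here are 10 genes of mouse liver, *Ces1b*, *Ces1c*, *Ces1d*, *Ces1e*, *Ces1f*, *Ces1g*, *Ces2a*, *Ces2c*, *Ces2e* and *Ces3a*, taken by symbol from a table of read counts that holds 46603 genes. The same table holds 20 genes of the carboxylesterase family in all. The counts come from mRNA sequencing of livers of male mice of the strain B6.V-Lep ob/JRj, which are homozygous for the *ob* mutation and lack leptin. Both groups carried this mutation, entered the study at an age of 5 to 6 weeks and received the AMLN diet, a feed with much fat, cholesterol and fructose, for 15 weeks before treatment and throughout it. INT-767 was given to 4 mice by oral gavage at 10 mg/kg once daily for 8 weeks, and 7 mice received the vehicle in the same way. INT-767 is a bile acid analog that activates the nuclear receptor FXR and the membrane receptor TGR5. No lean or chow-fed mice entered this comparison, so that the values describe obese mice with diet-induced steatohepatitis alone. Depth was between 7966963 and 15295230 counts in the vehicle mice and between 7381211 and 16022459 in the treated mice.

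Carboxylesterases are serine hydrolases that cut ester, thioester and amide bonds. Most of them are held in the lumen of the endoplasmic reticulum of the hepatocyte by a short retention signal at the end of the protein, while *Ces1c* encodes the form that mouse liver secretes into plasma. They activate or clear many ester drugs, and several of them cut neutral lipids: *Ces1d* is known as a triacylglycerol hydrolase that supplies lipid for the assembly of very low density lipoprotein (VLDL), and *Ces1g* and *Ces2a* are known to cut acylglycerols in the liver. Genes of the family are known to respond to nuclear receptors that sense foreign compounds, such as PXR and CAR.

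The tissue label was checked against hepatocyte markers, 17 of which were present in the table. Albumin (*Alb*) was the most abundant of them, at 43057 ± 4297 CPM with vehicle (SD, n = 7) and 63913 ± 19494 with INT-767 (SD, n = 4). CPM are read counts scaled to a common library total and by edgeR's TMM factor, which corrects for differences in composition between libraries. Of the pancreas acinar markers *Prss1*, *Cpa1*, *Pnlip* and *Amy2a5* were at 0 in all 11 mice, and of the small intestine markers *Cdx2* and *Alpi* were at 0.

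Not all libraries resembled their group. The first principal component of log2 CPM over the tested genes held 58.7% of the variance and the second 15.9%. On the first component INT-767 mice 4 and 2 had the lowest scores, at -90.3 and -73.2. Vehicle mice 1 and 7 followed at -41.2 and -19.0. Vehicle mouse 1, vehicle mouse 7 and INT-767 mouse 4 had the lowest scores on the second component, at -38.6, -30.9 and -20.3. Their deviations from their group means correlated with each other across 13880 genes, with Pearson's r between 0.66 and 0.74 (genes are not independent replicates). INT-767 mouse 4 also had the lowest median rank correlation with the other libraries, at 0.911. The next lowest were vehicle mouse 1 and INT-767 mouse 2, at 0.946 and 0.947. Neither the labels nor the methods give a reason. For the carboxylesterases described here, log2 fold changes are given with and without these 3 libraries. Of the other genes named below, *Ces2g*, *Ces3b* and *Cidea* have a log2 fold change without all 3. How far the values of the remaining genes rest on these libraries as a set is not reported here.

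The 10 genes lie in 2 loci of chromosome 8 (coordinates of GRCm38, GENCODE M21). The *Ces1* members stand on the minus strand over 280.6 kb, chr8:93056728-93337308, and the *Ces2* and *Ces3* members on the plus strand over 324.4 kb, chr8:104734003-105058413. *Ces1b* and *Ces1c* are neighbours in the first locus. *Ces2a* stands at one end of the second locus and *Ces3a* at the other, beside *Ces3b*. All are protein-coding genes of 12 to 14 exons in their longest transcript.

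RefSeq's promoter table for GRCm38.p6 held the 250 bases before the start of transcription for 7 of the 10 members, and *Ces1d*, *Ces1f* and *Ces3a* had no entry. The upstream sequences of *Ces1b* and *Ces1c* share an identical run of 58 bases, which begins at position -173 of *Ces1b* and -184 of *Ces1c*, counted from the start of transcription. Among the other pairs of members the longest shared run was 17 bases, between *Ces2a* and *Ces2e*. The run is shown here because both genes were higher with INT-767. It is printed 5′ to 3′ on the minus strand with 25 bases on each side and with the shared bases in capitals (RefSeq lists a second start of *Ces1b*, which lies nearer to the run), at chr8:93080031-93080138 for *Ces1b* and chr8:93131385-93131492 for *Ces1c*.
Ces1b: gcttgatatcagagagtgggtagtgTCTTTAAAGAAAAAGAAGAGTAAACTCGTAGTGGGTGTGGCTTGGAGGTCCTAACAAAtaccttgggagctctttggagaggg
Ces1c: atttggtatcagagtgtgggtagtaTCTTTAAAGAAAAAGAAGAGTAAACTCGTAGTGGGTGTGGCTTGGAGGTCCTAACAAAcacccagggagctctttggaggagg
When the 250 upstream bases were aligned with gaps, the pair was identical at 95.5% of the 223 positions where both had a base. By the same measure the other 20 pairs of members reached 69.5% to 78.0%.

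FXR and related receptors bind DNA at copies of the letters AGGTCA, and FXR is known to prefer an inverted repeat of them with 1 base between the copies. The letters AGGTCA or their reverse complement TGACCT occur in the 250 upstream bases of 13.8% of 27025 genes. Among the members with a sequence they occur only in *Ces2a*, at position -226. That inverted repeat occurs in 2 of the 27025 sequences (0.0074%) and in no member. The sequence of *Ces2a*, the member with the largest log2 fold change, lies on the plus strand at chr8:104733753-104734002, with the matching letters in capitals.
Ces2a: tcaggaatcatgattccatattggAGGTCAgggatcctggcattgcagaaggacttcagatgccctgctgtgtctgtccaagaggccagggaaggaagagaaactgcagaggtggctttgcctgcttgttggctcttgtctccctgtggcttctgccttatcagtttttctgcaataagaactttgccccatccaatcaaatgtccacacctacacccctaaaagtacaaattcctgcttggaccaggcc
A match of letters is a description of the sequence and not a bound site, and its absence from this window says nothing of sites elsewhere.

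Because these genes arose by duplication, reads can be shared between copies. Of all 75-base windows of the transcripts, 22.1% of those of *Ces2c* were found in another gene, most of them in the pseudogene *Ces2d-ps* (21.2%). The share was 15.1% for *Ces3a*, all in *Ces3b*, and 11.4% for *Ces2a*, all in the gene model *Gm7208*. It was 5.08% for *Ces1c* and 4.50% for *Ces1b*, 0.96% for *Ces1e*, 0.33% for *Ces2e* and 0 for *Ces1d*, *Ces1f* and *Ces1g*. No source used here says how the authors counted reads that match several genes, so that the values of *Ces2c*, *Ces3a* and *Ces2a* carry this uncertainty. An antisense gene overlaps 0.0381% of the exon bases of *Ces3a*, and no other member has exons under a gene of the opposite strand.

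INT-767 raised 4 of the 10 carboxylesterases and lowered 1. *Ces2a*, *Ces1g*, *Ces1c* and *Ces1b* were higher in treated mice, by 0.59 (*Ces1b*) to 1.38 (*Ces2a*) on the log2 scale, and *Ces3a* was lower, at 0.439 of the vehicle level. The other 5 members were not called: *Ces1d*, *Ces1e*, *Ces2c* and *Ces2e* had positive log2 fold changes and *Ces1f* a negative value. A call here is an adjusted p under 0.05 in edgeR's quasi-likelihood test with Benjamini-Hochberg adjustment over the 13880 genes tested. All 10 members were among these, with at least 48 counts in every mouse. Of all genes tested, 5.04% were called higher and 4.68% called lower (700 and 649 genes). With library size as the only scaling 331 and 1026 genes were called, and with upper-quartile factors 467 and 812. Without INT-767 mouse 2 the counts were 164 and 110, and without vehicle mouse 1 they were 1906 and 1370. The median log2 fold change of the members was 0.50, against -0.0106 over all tested genes. In 4 members every treated mouse was above every vehicle mouse, as in 3.87% of all tested genes. In no member was every treated mouse below every vehicle mouse, as in 3.65%. In whole liver, a change in the number of cells of a type and a change in RNA per cell cannot be told apart.

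**Figure D1:**
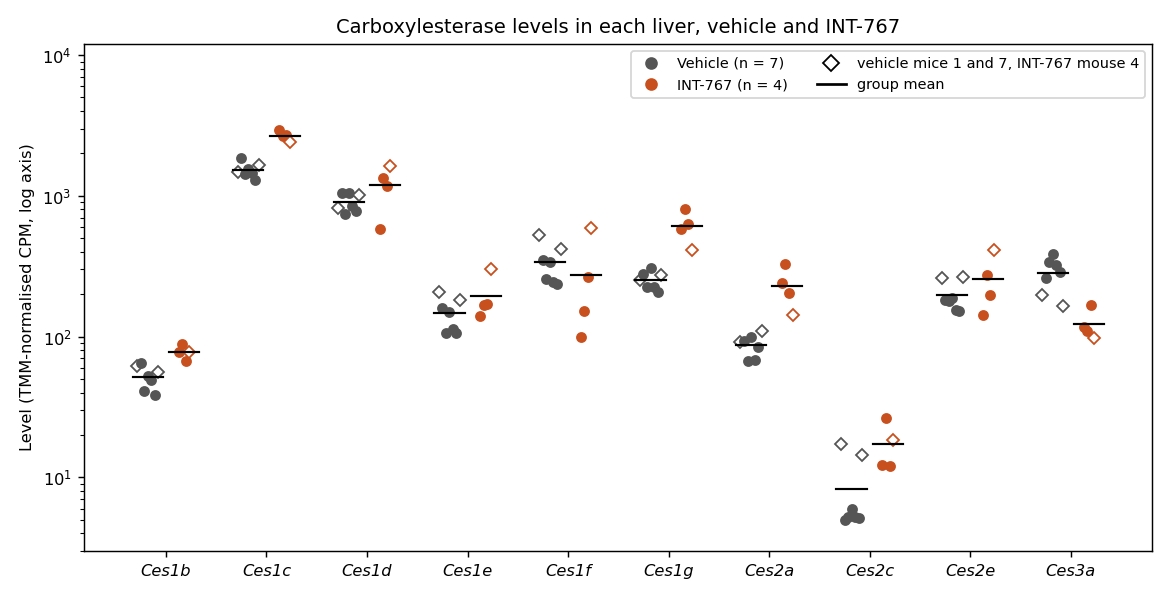
Level of each of the 10 carboxylesterases in each liver, in TMM-normalised CPM on a log axis, with vehicle (7 mice) in grey and INT-767 (4 mice) in orange. Bars are group means and open diamonds are vehicle mice 1 and 7 and INT-767 mouse 4. The 4 treated mice lie above all vehicle mice for *Ces1b*, *Ces1c*, *Ces1g* and *Ces2a*.

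Among the *Ces1* members, 3 of 6 were called higher and none lower. *Ces1c*, the plasma carboxylesterase, was the most abundant member. Its level ranged from 1300 to 1851 CPM in the vehicle mice (median 1472, n = 7). In INT-767 mice 1 to 4 it was 2926, 2682, 2691 and 2433 CPM. The groups did not overlap, and the lowest treated mouse, mouse 4, was above the highest vehicle mouse. On the log2 scale *Ces1c* rose by 0.81 ± 0.14 (SE; adjusted p = 0.00654). With scaling by hepatocyte markers the value was 0.41 (adjusted p = 0.0629).

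*Ces1g*, which encodes a lipase of the endoplasmic reticulum, also rose. It ranged from 207.9 to 307 CPM with vehicle (median 251, n = 7) and was 578, 811, 628 and 410 CPM in INT-767 mice 1 to 4. Every treated mouse was above every vehicle mouse, and mouse 4 was again the lowest of the treated mice. This was a rise of 1.26 ± 0.18 on the log2 scale (SE; adjusted p = 0.00329).

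*Ces1b*, the neighbour of *Ces1c*, had a smaller rise. Its level was 38.3 to 65.3 CPM with vehicle (median 52.3, n = 7) and 78.0, 89.1, 67.2 and 78.0 CPM in INT-767 mice 1 to 4. The groups came close, with treated mouse 3 at 67.2 CPM and vehicle mouse 2 at 65.3 CPM. Its fitted log2 fold change was 0.59 ± 0.16 (SE; adjusted p = 0.0414). This call was lost when any of 8 of the 11 mice was left out, with adjusted p of at most 0.163, and was kept without vehicle mouse 1, vehicle mouse 2 or INT-767 mouse 3 and without the 3 libraries that stood apart (adjusted p = 0.0249). The part of reads shared with *Ces1c* in this value was not tested. With library size only, the log2 fold change of *Ces1b* was 0.38 (adjusted p = 0.099), and with scaling by hepatocyte markers 0.20 (adjusted p = 0.423).

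*Ces1d*, the triacylglycerol hydrolase of VLDL assembly, was the second most abundant member and was not called. Its vehicle range was 743 to 1057 CPM (median 844, n = 7), and INT-767 mice 1 to 4 had 583, 1344, 1180 and 1638 CPM. Treated mouse 1 was below all vehicle mice, and the other treated mice were above all of them. Fitted over all mice, the log2 fold change of *Ces1d* was 0.39 ± 0.23 (SE; adjusted p = 0.246). Without INT-767 mouse 1 it was 0.62 (adjusted p = 0.0423), without INT-767 mouse 4 it was 0.19 (adjusted p = 0.634), and without the 3 libraries that stood apart it was 0.20 (adjusted p = 0.558).

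*Ces1e* encodes egasyn, which binds beta-glucuronidase and keeps it in the endoplasmic reticulum. It ranged from 105 to 206 CPM with vehicle (median 149, n = 7) and was 141, 168, 171 and 302 CPM in INT-767 mice 1 to 4. The groups overlapped, and only treated mouse 4 was above the vehicle range. The log2 fold change of *Ces1e* was 0.42 ± 0.25 (SE; adjusted p = 0.241) with all mice, 0.12 without INT-767 mouse 4 and 0.32 without the 3 libraries that stood apart. Beta-glucuronidase itself (*Gusb*) had a log2 fold change of -0.54 ± 0.17 (SE; adjusted p = 0.0623).

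*Ces1f* showed the widest spread of all members among treated mice. The vehicle mice had 237 to 526.5 CPM (median 341, n = 7), and INT-767 mice 1 to 4 had 99.6, 153, 263 and 588 CPM. Treated mice 1 and 2 were below every vehicle mouse, mouse 3 was inside the vehicle range and mouse 4 was above it. The coefficient of variation was 79.3% in treated and 31.5% in vehicle mice. The log2 fold change of *Ces1f* was -0.30 ± 0.41 (SE; adjusted p = 0.613), and without INT-767 mouse 4 it was -0.98 (adjusted p = 0.0973). It was -0.016 (adjusted p = 0.976) without INT-767 mouse 1, -0.12 (adjusted p = 0.876) without mouse 2 and -0.74 (adjusted p = 0.0684) without the 3 libraries that stood apart.

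In the *Ces2* group, 1 of 3 members was called higher. *Ces2a*, an acylglycerol lipase of the endoplasmic reticulum, had 67.4 to 109 CPM with vehicle (median 91.0, n = 7) and 241, 327, 204 and 143 CPM in INT-767 mice 1 to 4. All treated mice were above all vehicle mice, and mouse 4 was the lowest of them, as for *Ces1c* and *Ces1g*. With 1.38 ± 0.21 on the log2 scale (SE; adjusted p = 0.00403), *Ces2a* had the largest rise among the members. *Gm7208*, which shares windows with it, adds uncertainty to its level.

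*Ces2c* was the least abundant member and was not called, although all treated mice were above 5 of the 7 vehicle mice. Vehicle mice 2 to 6 had 4.98, 5.20, 5.99, 5.23 and 5.11 CPM, while vehicle mice 1 and 7 had 17.1 and 14.4 CPM. INT-767 mice 1 to 4 had 12.2, 26.3, 11.97 and 18.4 CPM. The treated mice were above vehicle mice 2 to 6 and overlapped with vehicle mice 1 and 7, which are among the libraries that stood apart. With all mice, the log2 fold change of *Ces2c* was 1.05 ± 0.39 (SE; adjusted p = 0.095). It was 1.64 (adjusted p = 0.00319) without the 3 libraries that stood apart, and 1.32 (adjusted p = 0.0245) without vehicle mouse 1 alone. Without INT-767 mouse 2 it was 0.77 (adjusted p = 0.308).

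*Ces2e* was not called. Vehicle mice had 151 to 264 CPM (median 183, n = 7), and INT-767 mice 1 to 4 had 141, 273, 196 and 410 CPM. Treated mouse 1 was below the vehicle range and mice 2 and 4 were above it. The log2 fold change of *Ces2e* was 0.37 ± 0.26 (SE; adjusted p = 0.321), without INT-767 mouse 4 it was 0.04, and without the 3 libraries that stood apart it was 0.24. *Ces2g*, a neighbour that is not among the 10 members, was higher in treated mice by 0.58 ± 0.12 on the log2 scale (SE; adjusted p = 0.0154). It had 44.3 to 61.5 CPM with vehicle (median 51.8, n = 7) and 74.3, 85.1, 74.3 and 76.9 CPM in INT-767 mice 1 to 4, with no overlap. The call of *Ces2g* was lost without INT-767 mouse 2 (adjusted p = 0.0839), with library size only (0.36, adjusted p = 0.0863) and with scaling by hepatocyte markers (0.18, adjusted p = 0.477). Without the 3 libraries that stood apart the log2 fold change of *Ces2g* was 0.65 (adjusted p = 0.00735).

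**Figure D2:**
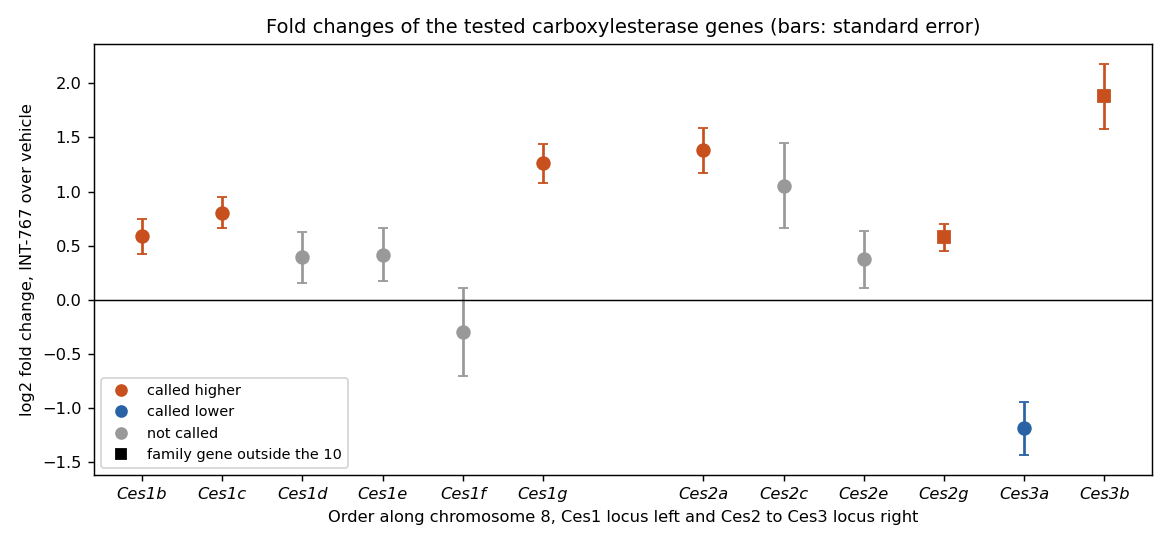
log2 fold change of INT-767 over vehicle for the 12 tested carboxylesterase genes in their order along chromosome 8, with standard errors as bars (7 vehicle and 4 INT-767 mice). Circles are the 10 members and squares *Ces2g* and *Ces3b*; *Ces3a* at -1.19 and its neighbour *Ces3b* at 1.88 mark the lower and upper ends.

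*Ces3a* was the member called lower. It encodes an abundant liver carboxylesterase that is less well characterised than the *Ces1* enzymes. The vehicle mice had 166 to 386 CPM (median 289, n = 7), and INT-767 mice 1 to 4 had 117, 110, 168 and 98.3 CPM. The groups overlapped by a single pair, treated mouse 3 at 168 CPM and vehicle mouse 7 at 166 CPM. On the log2 scale the change was -1.19 ± 0.25 (SE; adjusted p = 0.0144). The call was lost when INT-767 mouse 2 was left out (adjusted p = 0.071). Without the 3 libraries that stood apart the log2 fold change was -1.29 (adjusted p = 0.00314).

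The gene beside it, *Ces3b*, moved in the opposite direction. It is not among the 10 members and had 12.1 to 25.7 CPM with vehicle (median 22.4, n = 7). In INT-767 mice 1 to 4 it had 75.2, 123, 69.6 and 31.8 CPM, all above the vehicle range. It rose by 1.88 ± 0.30 on the log2 scale (SE; adjusted p = 0.0047), more than any member. Without the 3 libraries that stood apart the log2 fold change of *Ces3b* was 2.10 (adjusted p = 0.00109).

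The ratio of *Ces3a* to *Ces3b*, each per kb of exon, was 14.4 ± 6.44 in vehicle mice (SD, n = 7) and 1.94 ± 0.938 in treated mice (SD, n = 4). It ranged from 8.66 to 27.6 with vehicle. In INT-767 mice 1 to 4 it was 1.52, 0.874, 2.35 and 3.01, below every vehicle mouse. The 2 genes share 15.1% of the windows of *Ces3a* and 15.4% of those of *Ces3b*. The part of exchanged reads in these values was not tested.

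**Figure D3:**
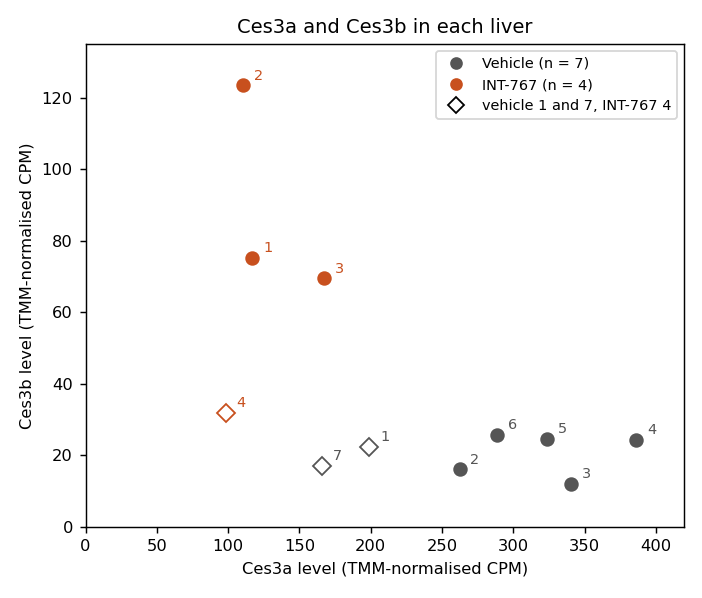
*Ces3a* (horizontal) and *Ces3b* (vertical) levels in each liver, in TMM-normalised CPM, numbered by mouse, with 7 vehicle mice in grey and 4 INT-767 mice in orange. Open diamonds are vehicle mice 1 and 7 and INT-767 mouse 4. Treated mice lie at low *Ces3a* and high *Ces3b*, and mouse 4 has the lowest value of *Ces3a* among all mice and of *Ces3b* among the treated mice.

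The remaining 8 genes of the family did not pass the filter on low counts. *Ces5a* had 0 counts in all 11 mice, where 3 counts would correspond to 0.175 to 0.422 CPM. *Ces1a* had 21 counts over the vehicle mice and 7 over the treated mice, *Ces2h* 49 and 14, and *Ces4a* 21 and 2. *Ces2d-ps* had 15 and 9 counts, *Ces2b* 7 and 6, *Ces1h* 2 and 0, and *Ces2f* 1 and 0. The pseudogene *Ces2d-ps*, which holds most of the windows that *Ces2c* shares, was thus listed at 1 to 5 counts in each mouse.

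To compare the members with each other, CPM were divided by the exon length of each gene in kb. *Ces1c* led in both groups, at 661 ± 77.3 CPM per kb with vehicle (SD, n = 7) and 1155 ± 86.7 with INT-767 (SD, n = 4). *Ces1d* was second in both, at 381 ± 57.1 and 501 ± 188, and its range lay below that of *Ces1c* in both groups. *Ces2c* was last in both, at 3.61 ± 2.25 and 7.49 ± 2.93. From the highest to the lowest member the vehicle means spanned a ratio of 183.

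Between these ends the places differed between the groups. In vehicle mice the order was *Ces3a* (107 ± 29.8 CPM per kb), *Ces1g* (106 ± 14.9), *Ces1f* (103 ± 32.5), *Ces2e* (73.0 ± 17.2), *Ces1e* (66.8 ± 18.2), *Ces2a* (37.2 ± 6.64) and *Ces1b* (26.4 ± 5.10). The ranges of *Ces3a*, *Ces1g* and *Ces1f* overlapped, and within single livers *Ces3a* was above *Ces1g* in 4 of 7 vehicle mice and *Ces1g* above *Ces1f* in 5 of 7, so that these neighbours did not differ beyond their spread. The ranges of *Ces1f* and *Ces2e*, of *Ces2e* and *Ces1e*, and of *Ces2a* and *Ces1b* also overlapped, but within single livers the first was above the second in 7, 6 and 7 of the 7 vehicle mice. In treated mice *Ces1g* took place 3 (254 ± 69.1), followed by *Ces2a* (96.8 ± 32.6), *Ces2e* (94.6 ± 43.2), *Ces1e* (89.3 ± 33.1), *Ces1f* (83.98 ± 66.6), *Ces3a* (46.9 ± 11.6) and *Ces1b* (39.8 ± 4.57). The mean of *Ces3a* thus went from place 3 to place 8 and that of *Ces2a* from place 8 to place 4. In treated mice the ranges of *Ces2a* (60.5 to 139 CPM per kb), *Ces2e* (52.4 to 152), *Ces1e* (64.3 to 138) and *Ces1f* (30.3 to 179) overlapped, so that places 4 to 7 were not told apart by these ranges. The range of *Ces3a* (37.4 to 63.8) overlapped with those of *Ces2a*, *Ces2e* and *Ces1f* and lay below that of *Ces1e*. It also overlapped with that of *Ces1b* (34.2 to 45.4), so that places 8 and 9 were not told apart by these ranges. Within single livers *Ces3a* was below *Ces2a* in 4 of 4 treated mice. With the length of the longest transcript in place of all exons, 3 members changed their place among the vehicle means.

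The summed level of the 10 members was 1565 ± 179 CPM per kb with vehicle (SD, n = 7) and 2369 ± 207 with INT-767 (SD, n = 4), a ratio of 1.51. The vehicle mice ranged from 1320 to 1781, and INT-767 mice 1 to 4 had 2087, 2524, 2340 and 2525. The groups did not overlap. Most of the difference lay in *Ces1c*: without it the sum was 904 ± 115 with vehicle and 1214 ± 285 with INT-767, and the groups overlapped. The share of *Ces1c* in the sum was 42.3% ± 2.09 with vehicle and 49.3% ± 8.09 with INT-767. As a percent of all counts, with no length or TMM scaling, the 10 members held 0.399% ± 0.038 and 0.513% ± 0.0241, again without overlap.

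**Figure D4:**
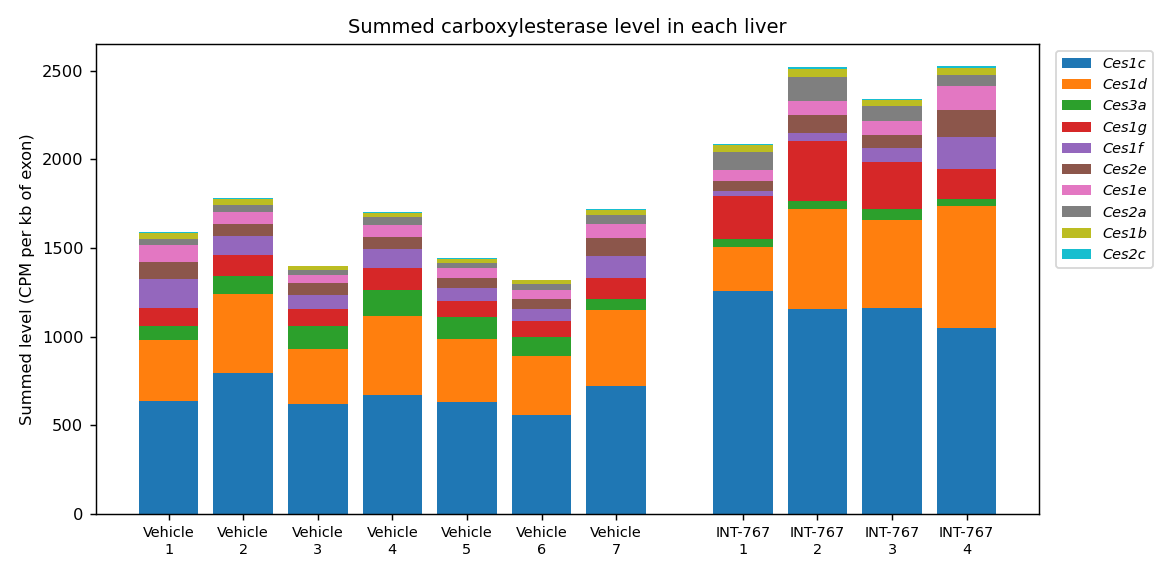
Summed level of the 10 carboxylesterases in each liver, in CPM per kb of exon, stacked by gene, for 7 vehicle and 4 INT-767 mice. The treated mice reach 2087 to 2525 and the vehicle mice 1320 to 1781, and *Ces1c* and *Ces1d* fill most of each bar.

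The libraries that stood apart deviated from their groups alike in some members and not in others. *Ces1f*, *Ces1e* and *Ces2e* were highest in INT-767 mouse 4 among all treated mice, and among vehicle mice they were highest in mouse 1 or mouse 7. Relative to the group median on the log2 scale, *Ces1f* was at 0.63 in vehicle mouse 1, 0.31 in vehicle mouse 7 and 1.55 in INT-767 mouse 4, while *Ces3a* was at -0.54, -0.80 and -0.21. In the same order *Ces1c* was at 0, 0.18 and -0.14, *Ces1g* at 0, 0.14 and -0.56, *Ces2a* at 0, 0.27 and -0.63, and *Ces2c* at 1.71, 1.46 and 0.30. Without these libraries 5 members were called higher, *Ces2c* in addition to the other 4, and *Ces3a* was called lower. The log2 fold changes were then 0.85 for *Ces1c*, 1.42 for *Ces1g*, 0.65 for *Ces1b* and 1.62 for *Ces2a*. The summed level differed by 0.60 on the log2 scale with and without them.

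For each member, the tested gene outside the family with the most similar pattern was sought by Pearson's r of log2 CPM over the 11 mice, which share libraries and treatment groups. For *Ces1g* it was *Gstt1*, a glutathione transferase (r = 0.979), for *Ces1c* *Pitpnb*, a phosphatidylinositol transfer protein (r = 0.964), and for *Ces2a* *Sys1* (r = 0.969). It was *Gm30784* for *Ces1b* (r = 0.968), *Trmt1* for *Ces1d* (r = 0.930), *Zfp317* for *Ces1e* (r = 0.976), *Maged2* for *Ces1f* (r = 0.957), *Carnmt1* for *Ces2c* (r = 0.983), *Slc35b2* for *Ces2e* (r = 0.991) and *Tmem55b* for *Ces3a* (r = 0.977). Each is the best of all tested genes, which makes a high r likely in so few mice.

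No tested gene within 200 kb of the loci was called, where 5.04% of all tested genes were called higher and 4.68% lower. With so few genes tested, this count does not set the neighbours apart from other genes. Beside the *Ces1* locus 1 of 4 such genes was tested, *Lpcat2*, an enzyme of phospholipid remodelling, with a log2 fold change of -0.64 (adjusted p = 0.0731). Beside the *Ces2* and *Ces3* locus 8 of 17 were tested, with a median log2 fold change of -0.0248. The other *Ces* genes are not counted among these neighbours.

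Other genes of the same pathway were followed by lists. Of 26 other esterases and lipases of the hepatocyte, 2 were called higher and none lower, with a median log2 fold change of -0.13. They were *Lipc*, the hepatic lipase that acts on lipoproteins (1.58 ± 0.25, SE; adjusted p = 0.00471), and *Aadac*, an arylacetamide deacetylase of the endoplasmic reticulum (1.38 ± 0.37, SE; adjusted p = 0.0367). *Lipc* ranged from 40.9 to 87.7 CPM with vehicle and was 94.5, 248, 137 and 198 CPM in INT-767 mice 1 to 4, with no overlap. The most abundant gene of the list, the lysosomal lipase *Lipa*, had a log2 fold change of 0.30 (adjusted p = 0.312).

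Of 24 genes of triglyceride storage and VLDL assembly, 3 were called higher and 3 lower, with a median log2 fold change of 0.24. The 3 called lower encode proteins of the lipid droplet surface, *Cidea* (-3.15), *Plin4* (-2.08) and *Cidec* (-1.41). *Cidea* had 6.21 to 27.4 CPM with vehicle and 0.699, 1.52, 1.27 and 4.50 CPM in INT-767 mice 1 to 4. Without INT-767 mouse 4 its log2 fold change was -4.06, and without the 3 libraries that stood apart -4.41. Called higher were *Plin5*, another droplet protein (1.59), *Soat2*, which forms cholesteryl esters (0.91), and *Tm6sf2*, which takes part in VLDL lipidation (0.73). With each mouse left out, *Plin5* ranged from 1.03 to 1.83 and *Tm6sf2* from 0.48 to 0.88. *Apob*, the structural protein of VLDL and the most abundant gene of the list, had a log2 fold change of 0.87 (adjusted p = 0.106).

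Among 18 nuclear receptors and other regulators, 4 were called higher and none lower, with a median log2 fold change of 0.16. *Nr0b2*, which encodes the repressor SHP and is a known target of FXR, was at 9.74 to 26.0 CPM with vehicle and at 49.3, 63.0, 45.2 and 41.1 CPM in INT-767 mice 1 to 4. Its log2 fold change was 1.54 ± 0.25 (SE; adjusted p = 0.00474). The coactivator *Ppargc1a* (0.93), the glucocorticoid receptor *Nr3c1* (0.60) and the PXR gene *Nr1i2* (0.51; adjusted p = 0.0491) were the others. The FXR gene itself, *Nr1h4*, had a log2 fold change of -0.25 ± 0.14 (SE; adjusted p = 0.232).

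Of 22 targets of PXR and CAR 19 were tested, 5 were called higher and none lower, with a median log2 fold change of 0.65. These were *Sult2a7* (2.18), *Gstm3* (2.16), *Cyp2c54* (2.00), the transporter *Slco1a4* (1.23) and *Cyp3a25* (0.92). *Sult2a7* is scarce, at 0.0727 to 1.62 CPM with vehicle and 1.08 to 3.32 CPM with INT-767. *Cyp3a11*, the most abundant gene of this list, had a log2 fold change of 1.197 (adjusted p = 0.088). Without INT-767 mouse 2 *Cyp2c54* was at 1.24 (adjusted p = 0.0518). None of 4 genes of retention in the endoplasmic reticulum, *Gusb* and the KDEL receptors, was called. Of the 17 genes called in these pathway lists, *Lipc*, *Soat2*, *Cidea*, *Nr0b2*, *Ppargc1a* and *Gstm3* were called whichever mouse was left out, and the other 11 lost the call without INT-767 mouse 2, with adjusted p between 0.0518 and 0.2003. For *Cyp2c54* and *Cyp3a25* this was the only such mouse. Other mice mattered too for *Nr1i2* and *Sult2a7*, called in 3 of the 11 fits that leave out 1 mouse, *Aadac* and *Tm6sf2* (4), *Nr3c1* (5), *Cidec* and *Plin5* (6), *Slco1a4* (7) and *Plin4* (8).

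Of 17 hepatocyte markers, 5 were called higher and none lower, with a median log2 fold change of 0.24. Their summed level was 79725 to 105670 CPM in vehicle mice (median 85830) and 136910, 142260, 115760 and 90135 CPM in INT-767 mice 1 to 4. The first 3 of these were above every vehicle mouse. INT-767 mouse 4, with the lowest sum of hepatocyte markers among treated mice, had a summed carboxylesterase level of 2525 CPM per kb, next to 2524 in mouse 2. When the counts were scaled by the hepatocyte markers in place of TMM, the median of all tested genes moved to -0.41, and *Ces1g* (0.83, adjusted p = 0.0115) and *Ces2a* (0.93, adjusted p = 0.0136) were still called higher. *Ces1c* was then at 0.41 (adjusted p = 0.0629), *Ces1b* at 0.20 and *Ces3a* at -1.59 (adjusted p = 0.00672).

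Markers of the other liver cells had negative median log2 fold changes. For 11 macrophage markers the median was -0.63 with 2 called lower (*Cd68* and *Csf1r*), and for 11 stellate cell and myofibroblast markers -0.63 with 3 called lower (*Col1a1*, *Col1a2* and *Pdgfrb*). It was -0.67 for 9 cholangiocyte markers with 1 called lower (*Muc1*), -0.60 for 9 endothelial markers with 1 called lower (*Vwf*) and -0.32 for 6 tested lymphocyte markers with none called. No marker of these 5 lists was called higher. Of the 12 called markers of all cell types, 8 lost the call without INT-767 mouse 2, with adjusted p between 0.0518 and 0.136. Of these, *Vwf* was called in 4 of the 11 fits that leave out 1 mouse, *Col1a1* and *Pdgfrb* in 5 and *Col1a2* in 7. The summed macrophage markers were 743 to 1057 CPM with vehicle and 536, 521, 477 and 1148 CPM in INT-767 mice 1 to 4. INT-767 mouse 4 thus had a higher macrophage sum than any other mouse.

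The summed stellate cell and myofibroblast markers were 996 to 2033 CPM with vehicle and 747, 802, 898 and 1446 CPM with INT-767. The summed cholangiocyte markers were 763 to 1956 CPM with vehicle, with vehicle mice 1 and 7 the highest at 1956 and 1531 CPM, and 376, 600.4, 835 and 1370 CPM with INT-767. The endothelial sum was 317 ± 115 CPM with vehicle (SD, n = 7) and 197 ± 56.1 CPM with INT-767 (SD, n = 4). The most abundant genes of these lists were *Lyz2*, *Dcn*, *Spp1* and *Eng*, none of them called. Lymphocyte markers were scarce, with a summed level of 7.78 ± 3.51 CPM with vehicle (SD, n = 7) and 6.05 ± 2.43 CPM with INT-767 (SD, n = 4).

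Other tissues left few reads. Of the adipocyte markers *Retn* was at 0 in all mice, *Cfd* was the most abundant at 1.11 ± 0.751 CPM with vehicle, and the summed level was at most 2.62 CPM in 10 of the mice and 11.99 CPM in INT-767 mouse 4. The most abundant pancreas marker was *Cela1* at 18.6 ± 3.39 CPM with vehicle and 13.02 ± 4.93 with INT-767. Among small intestine markers *Fabp2*, which the liver also expresses, was at 203 ± 73.9 CPM with vehicle and 425 ± 305 with INT-767 (adjusted p = 0.0855). The part of differing cell shares in the carboxylesterase results was not tested beyond the hepatocyte scaling.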

How the data were processed

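The authors deposited 1 table of raw read counts per gene for 11 livers. They prepared stranded mRNA libraries, sequenced 75 cycles and aligned the reads to GRCm38 with Ensembl release 84 by STAR (version 2.4.0 in the submitters' processing notes, another version in the methods). For the counting program and its strand setting, a name was not given in the sources used here. All columns were mapped to a mouse by its label. The members and lists were chosen with earlier results of these data known. Genes named are all members and tested or counted family genes, up to 5 called genes per pathway list, *Nr1h4*, *Nr0b2*, *Gusb*, the most abundant gene of each marker list, called neighbours within 200 kb and the most similar gene of each member. *Lpcat2*, *Tm6sf2*, *Lipa*, *Apob*, *Cyp3a11* and the called marker genes were named after their values were seen. Of the genes that this rule names, 1 is left out of the text.

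Counts were scaled by TMM and filtered by filterByExpr (minimum count 10, minimum total 15) in edgeR 4.0.16 under R 4.3.3. The 13880 genes left entered edgeR's robust quasi-likelihood fit and F test with all 11 mice and a single treatment term. Adjusted p are Benjamini-Hochberg with a threshold of 0.05, and each standard error was derived from the F statistic and the fold change. A floor of 3 counts covers counting error only. Levels per kb used the exon length of GENCODE M21. Alternatives were RLE, library size, upper-quartile and hepatocyte-marker scaling, 2 other filters, limma-voom 3.58.1 with and without sample weights, DESeq2 1.42.0, an offset for GC content and length (lowess span 0.3), a replicate block, a threshold of 0.01 and leaving out each mouse. Leaving out the 3 libraries that stood apart was chosen after seeing the data. Data of this design were simulated (13880 genes, of which 200 were changed by a log2 fold of 2). In the simulated data edgeR found 88% and called 9 others, limma-voom 83.5% and 9, with and without weights, and DESeq2 92% and 31. Recovery at smaller log2 folds, such as the 1.38 of *Ces2a* or the -1.19 of *Ces3a*, was not tested. Figures were drawn with matplotlib under Python.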

Additional observations from a re-analysis of the deposited data

Results flagged for a closer look

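The ratio of *Ces3a* to *Ces3b* per kb was 27.6 in vehicle mouse 3, far above the other vehicle mice, the next of which was at 15.95. Its gap to the nearest mouse was 0.614 of the group's range, where Dixon's 95% limit for 7 mice is 0.568. Of 28 groups of values examined this was the only one past its limit, and chance passes the limit in about 5% of groups. The cause was not tested.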

How the results depend on the processing

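No log2 fold change of a tested carboxylesterase changed sign under any of 25 alternatives. The count of members called higher was 4, and with each mouse left out it ranged from 3 to 5. It was 2 (*Ces1g* and *Ces2a*) with scaling by hepatocyte markers, and 0 with a replicate block, with or without the offset for GC content and length. The count of members called lower was 1, ranged from 0 to 1 with each mouse left out, and was 0 with the block, 0 with the offset and the block, and 0 at a threshold of 0.01. The summed level differed by 0.598 on the log2 scale, by 0.388 with library size only, which moved the median of all genes to -0.22, and by 0.561 to 0.654 with each mouse left out. In the order of levels 3 members changed place with the longest transcript. *Ces1c*, *Ces1g*, *Ces2a* and *Ces3b* were called whichever mouse was left out, and *Ces3a* and *Ces2g* in 10 of 11 cases, the exception being INT-767 mouse 2. *Ces1b* lost its call also with library size, upper-quartile factors, no filter and a minimum of 10 counts in every mouse, and *Ces2g* with library size only, hepatocyte scaling and no filter. *Ces2c* was also called with limma-voom sample weights (adjusted p = 0.0102).

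The replicate numbers are shared between groups, but same-numbered mice did not deviate together, with correlations across genes of -0.69, 0.215, 0.148 and -0.48, so that they do not pair the mice. The fit with the block (edgeR) called 0 of 13880 genes, with 1347 at an unadjusted p under 0.05. For the whole table the counts called higher and lower were 700 and 649. They were 331 and 1026 with library size, 467 and 812 with upper-quartile factors, 206 and 3202 with hepatocyte scaling, 1443 and 1368 with DESeq2, 1658 and 1221 with sample weights, 1067 and 822 with the GC and length offset, 1906 and 1370 without vehicle mouse 1, 164 and 110 without INT-767 mouse 2, and 1968 and 1843 without the 3 libraries that stood apart.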
